A study of Mus musculus with 6 samples.

Results

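Hoxa2, Hoxa3, Hoxa4, Hoxa5, Hoxa6 and Hoxa7 are the anterior genes of the HoxA cluster on mouse chromosome 6. These 6 genes were taken by name out of 21617 protein-coding genes, and every called region over a gene body or within 5 kb of its start was collected from 8 peak lists. This gave 74 of the 379158 regions in all lists. The 6 gene windows overlap and together form 1 stretch of 62.7 kb (mm10, chr6:52159831-52222505). All 6 genes are transcribed from the minus strand, so Hoxa2 lies at the low-coordinate end and Hoxa7 at the high-coordinate end, next to Hoxa9.

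The study moved a digit enhancer of the HoxD cluster into a neighbouring chromatin domain, and these profiles of unmodified limbs show the wild-type state. Of the 6 samples, 3 came from distal forelimb (DFL, the future digits) and 3 from proximal forelimb (PFL, the future forearm and upper arm) of wild-type B6CBAF1 mouse embryos at E12.5. Each piece was profiled by ChIP-seq for H3K27ac, H3K27me3 and CTCF, with 1 library per mark and piece made from pooled tissue, and all were earlier libraries that the study processed again, those of H3K27me3 from a different dataset than those of H3K27ac and CTCF. No replicate exists, so no p-value is given and every interval covers counting error only. A further 2 lists, of HOXA13 and HOXD13 binding in wild-type forelimb, named for embryonic day 11, belong to no sample of the series and serve here as annotation. Both pieces are mixtures of cell types, so a mark in few cells and a weak mark in all cells cannot be told apart.

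Hox genes encode homeodomain transcription factors that tell cells their position along the body and limb axes. Genes at the anterior end of a cluster are switched on earlier and further towards the head than those at the posterior end, and in the limb the posterior members, above all the group 13 genes, specify the hand. H3K27ac marks active promoters and enhancers. H3K27me3 is laid down by Polycomb complexes over silent developmental genes, and at Hox clusters it typically covers whole blocks of genes. CTCF is a DNA-binding protein that anchors chromatin loops, and its sites inside Hox clusters are known as borders between active and silent blocks. HOXA13 and HOXD13 (together HOX13) are the factors that drive the distal limb programme.

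The piece labels were checked with H3K27ac over marker genes. The covered length was longer in DFL at 4 of 5 distal markers, Sall1 being the exception, and longer in PFL at 4 of 4 proximal markers. Muscle markers had regions in PFL alone, from 1133 to 1675 bp, and none in DFL, and blood markers had none in either piece. Ectoderm markers were longer in DFL at 2 of 2 (Krt5 with 711 bp in DFL and 0 bp in PFL, Trp63 with 5347 bp in DFL and 4027 bp in PFL), and of 3 brain markers 2 had no region and Neurod6 had 698 bp in DFL and 0 bp in PFL. The part that these other cell types play in the values below was not tested. Levels are given as the summit pileup, the number of fragments over the highest point of a region, and as the local background, the fragment number the peak caller found in the surroundings. Since no input control was used, the local background is coverage of the same library and is itself high inside a broad marked domain. Both were divided by the lowest background of their library, which was 12.49 fragments in DFL and 11.88 in PFL for H3K27ac, 3.06 in DFL and 4.75 in PFL for H3K27me3, and 6.47 in DFL and 7.31 in PFL for CTCF.

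The sequences that the results return to come from the mm10 reference. The first annotated start of the antisense RNA gene Hoxaas3 lies inside Hoxa3, in the DFL H3K27ac region of highest fold in the stretch. The first base of Hoxaas3 is in capitals, on the plus strand, chr6:52175177-52175257.
Hoxaas3 start: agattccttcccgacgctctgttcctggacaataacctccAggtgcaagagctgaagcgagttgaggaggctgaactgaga
CTCF sites were searched for CC, any 3 bases and then AGGNGGC on both strands, with at most 1 of the 8 fixed letters differing, within 50 bp of a summit. The match is in capitals in the sites upstream of Hoxa5 (chr6:52204645-52204684) and upstream of Hoxa7 (chr6:52221795-52221834), both read on the minus strand and both with 1 letter differing.
Hoxa5 CTCF site: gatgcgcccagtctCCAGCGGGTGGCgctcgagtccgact
Hoxa7 CTCF site: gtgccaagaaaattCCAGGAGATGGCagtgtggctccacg
The CTCF site of highest pileup, between Hoxa6 and Hoxa7, held no such match and is shown around its DFL summit on the plus strand (chr6:52211714-52211753).
Hoxa6 to Hoxa7 CTCF site: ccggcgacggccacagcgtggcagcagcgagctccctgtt
HOX13 sites were searched for CNNATAAA on both strands within 50 bp of a summit. The sites in the Hoxa4 intron (chr6:52190952-52190991, minus strand), in the Hoxa7 intron (chr6:52216810-52216849, minus strand) and beside the Hoxa3 transcript start (chr6:52213412-52213451, plus strand) are shown with the motif in capitals, because the intron sites had the highest folds among the sites with a match and the other site overlaps an acetylated region of both pieces.
Hoxa4 HOX13 site: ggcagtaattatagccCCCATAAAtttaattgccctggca
Hoxa7 HOX13 site: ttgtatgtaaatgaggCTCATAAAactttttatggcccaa
Hoxa3 start HOX13 site: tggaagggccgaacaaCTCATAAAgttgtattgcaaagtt

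**Figure D1:**
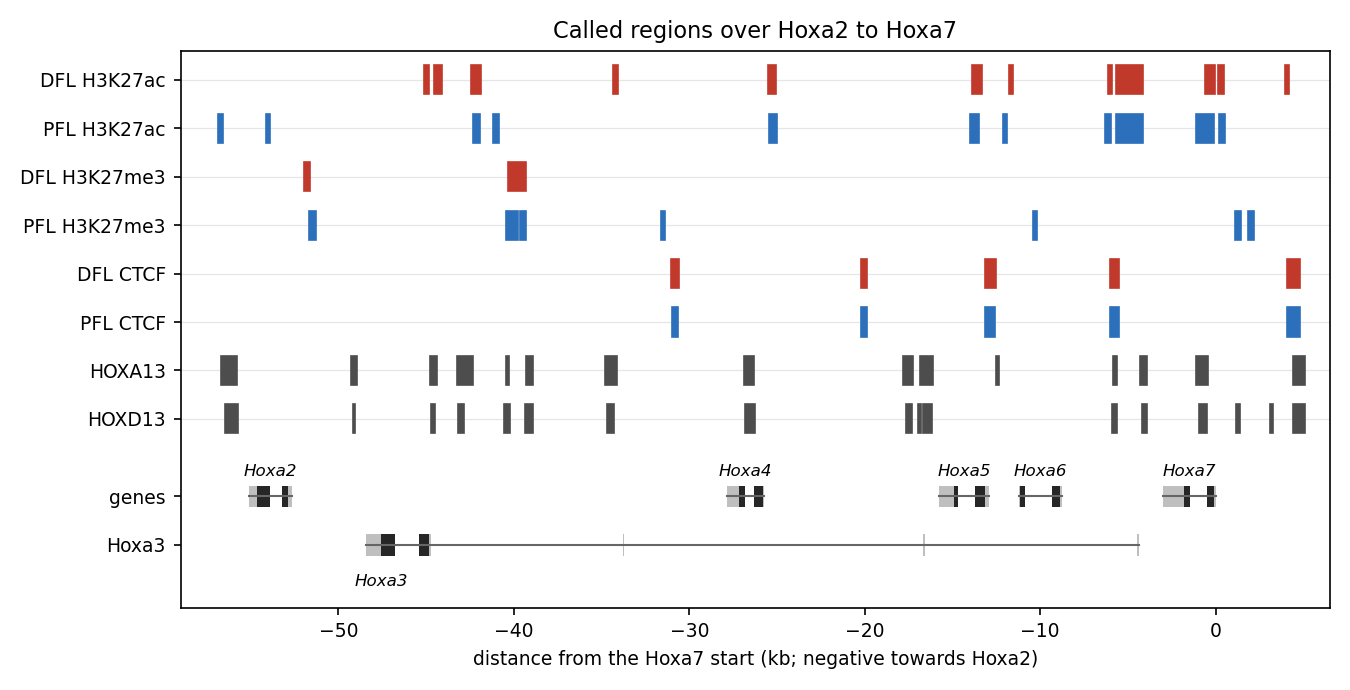
Regions of the 8 lists along Hoxa2 to Hoxa7. The x axis is the distance from the Hoxa7 start in kb, each bar is 1 called region, DFL lists are red, PFL lists blue and the HOX13 lists grey; in the gene models, coding exons are black and untranslated exons light grey. H3K27ac regions of both pieces crowd near 0 kb, the 2 DFL H3K27me3 regions lie in the Hoxa2 to Hoxa3 part, and the 5 CTCF sites are the same in DFL and PFL.

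H3K27ac covered near-equal lengths of the anterior genes in DFL and PFL. The longest region, over the start of the long Hoxa3 transcript between Hoxa6 and Hoxa7, was found in both. In total 12 DFL regions covered 5.70 kb (5699 bp, 9.09% of the stretch) and 11 PFL regions covered 5.78 kb (5782 bp, 9.23%). The DFL share of the summed length was 49.6% (Wilson 95% interval on the region numbers, 33.0 to 70.8%), against 45.3% over the whole genome. Of the 12 DFL regions 7 overlapped a PFL region, against 73.3% of all DFL regions genome-wide, and of the 11 PFL regions 7 overlapped a DFL region, against 61.9% of all PFL regions. A region in both pieces was found at 5 of 6 genes, all but Hoxa2, against 63.1% of all protein-coding genes. The covered length was at least 1.5 times larger in DFL at 0 of 6 genes (5.49% of all genes with a region) and at least 1.5 times smaller in DFL at 1 of 6, Hoxa2 (19.6%).

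Hoxa2, which patterns the hindbrain and the second pharyngeal arch, had no H3K27ac region in DFL and 583 bp in PFL. The 2 PFL regions had summit pileups of 45 fragments (chr6:52160621-52160946, downstream of the gene) and 44 fragments (chr6:52163351-52163607, a coding exon of Hoxa2), with folds of 2.399 and 2.129 over local background. Both were weak calls, with −log10 q of 5.44 and 3.93. The DFL pileup at these places cannot be read from a list of called regions.

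Hoxa3, needed for organs of the pharynx such as the thymus, held the region with the largest pileup ratio of DFL over PFL among the shared regions. Its principal transcript is 44.1 kb long and runs over Hoxa4, Hoxa5 and Hoxa6, so its window of 49.1 kb overlaps those of all other members, with 5463 bp of H3K27ac in DFL and 5199 bp in PFL. Around its coding exons and 5 kb above (chr6:52169062-52177649), DFL had 1334 bp in 3 regions and PFL 711 bp in 2 regions. The region over the Hoxaas3 start (chr6:52175059-52175642 in DFL, chr6:52175181-52175584 in PFL) had a summit pileup of 119 fragments in DFL (exact Poisson 95% interval 98.6 to 142) and 43 in PFL (31.1 to 57.9). Its fold was 4.90 in DFL and 2.36 in PFL, reached or passed by 18.2% of DFL summits and 74.1% of PFL summits.

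Scaled to the lowest background, that region stood at 9.53 in DFL and 3.62 in PFL, a log2 ratio of 1.396 (exact 95% interval 0.88 to 1.93). The same ratio was 1.61 when libraries were scaled to the regions they share genome-wide and 1.47 with no scaling. The other 2 DFL regions of this part, over a coding exon of Hoxa3 (chr6:52172367-52172677, 65 fragments) and in the intron beside it (chr6:52172965-52173403, 69 fragments), had no PFL counterpart. A further DFL region without counterpart lay in the Hoxa3 intron (chr6:52183165-52183423, 38 fragments, fold 2.89). A PFL region without a DFL counterpart lay at chr6:52176341-52176647 with 37 fragments and a fold of 2.14. Over the whole stretch, 5 DFL and 4 PFL H3K27ac regions had no counterpart, where 73.3% of all DFL and 61.9% of all PFL regions genome-wide had one.

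Hoxa4, which shapes the cervical vertebrae, had a single H3K27ac region at its start, the same in both pieces. It held 48 fragments in DFL and 48 in PFL, with folds of 3.63 and 3.81 in DFL and PFL, and the scaled log2 ratio of −0.07 had an interval of −0.68 to 0.54. Its local background was at the lowest value of each library in both pieces, so no raised coverage was found around the region. Whether the surroundings were unmarked cannot be read from this value.

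Hoxa5, needed for lung and for the neck to trunk transition of the skeleton, had 805 bp of H3K27ac in DFL and 796 bp in PFL, part of it shared with the window of Hoxa6. The region near its start had its strongest summit at 41 fragments in DFL and 78 in PFL, a scaled log2 ratio of −1.0 (−1.58 to −0.44). The 2 summits compared were 440 bp apart, in the coding exon in DFL and in the Hoxa5 intron in PFL. Upstream of Hoxa5, 1 DFL region (chr6:52205712-52205945, 54 fragments) and 1 PFL region (chr6:52205362-52205604, 63 fragments) lay side by side without overlapping.

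Hoxa6 and Hoxa7, which act in the thoracic skeleton, had the highest shares of their windows under H3K27ac among the 6 genes. The Hoxa6 window had 2466 bp (24.7%) in DFL and 2399 bp (24.0%) in PFL, and the Hoxa7 window 1976 bp (19.8%) in DFL and 2218 bp (22.2%) in PFL. No H3K27ac region of either piece lay over the Hoxa6 gene itself (chr6:52206288-52208722). Most of the cover of its window came from the longest region, which lies at the Hoxa3 transcript start. The longest region (chr6:52211822-52213346 in DFL, chr6:52211846-52213351 in PFL), over the start of the long Hoxa3 transcript between Hoxa6 and Hoxa7, peaked at 231 fragments in DFL and 286 in PFL. At the Hoxa7 start, 219 fragments in DFL faced 264 in PFL on the coding side, and 191 in DFL faced 213 in PFL upstream.

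The local background was lower in DFL at the shared regions from Hoxa5 to Hoxa7. Over the 5 shared regions from Hoxa5 to Hoxa7 it was 1.63 to 6.52 times the lowest background in DFL and 2.38 to 10.4 times in PFL, and at each of the 5 it was lower in DFL, with DFL over PFL ratios of 0.540 to 0.685. Since 4 of the 5 lie close together, from −6.0 to 0.3 kb, their surroundings can overlap. The 5 values are thus not independent observations. It was lower in DFL at all 5 also when scaled to the shared regions, with log2 ratios of −0.67 to −0.33, and with no scaling, −0.82 to −0.47. At the Hoxa5 region the pileup ratio given above, −1.0, was further from 0 than that of the background, −0.55. At the other 4 regions, from −6.0 to 0.3 kb, the scaled log2 ratios of the pileup were −0.68, −0.38, −0.34 and −0.23. Scaling to shared regions, which shifts all H3K27ac log2 ratios by 0.22, brought them to −0.46, −0.16, −0.13 and −0.01, and the intervals of the last 3 then spanned 0, as that of the last already did before (−0.42 to 0.09, −0.39 to 0.14 and −0.30 to 0.28). The lower DFL summit at Hoxa7 therefore depended on the scaling, while the lower DFL surroundings did not.

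DFL had 1 further region without PFL counterpart at the Hoxa9 side of Hoxa7 (chr6:52221455-52221690). It had the highest DFL pileup of the stretch, 259 fragments, and the highest DFL local background, 12.1 times the lowest, a background reached by 0.386% of DFL summits. The fold was 1.71, and the region overlapped the CTCF site upstream of Hoxa7. Whether the PFL signal there was lower, or as high as its surroundings and therefore not called, cannot be read from the lists. Over all summits of the stretch the median scaled pileup was 8.33 in DFL (15 summits) and 9.93 in PFL (14 summits), a log2 ratio of −0.25. This ratio turned positive, 0.385, with the strongest summit of each region alone. The interval set around it, −0.35 to −0.16, is the counting error of the summed summit pileups and not that of the medians.

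**Figure D2:**
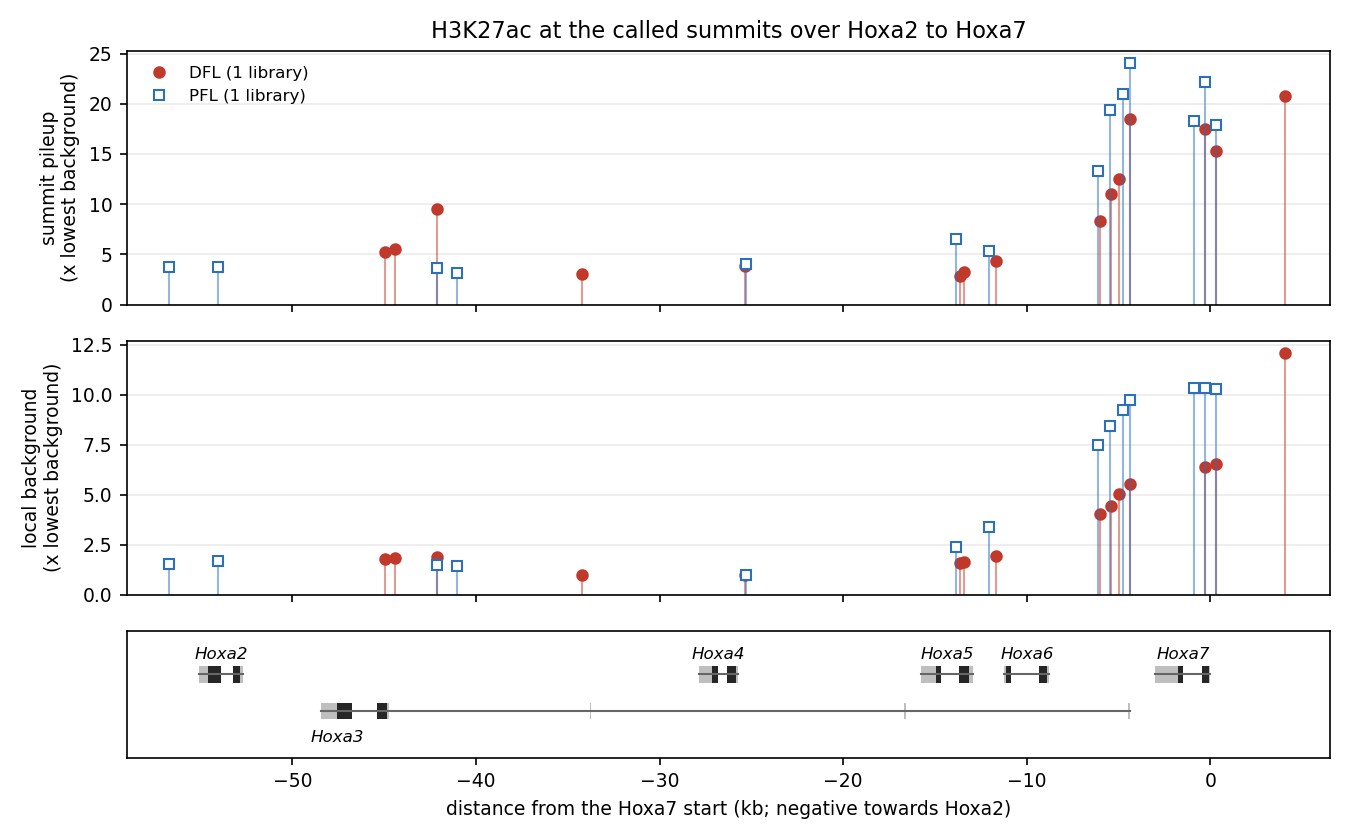
H3K27ac at called summits along the genes. The upper panel plots the summit pileup and the middle panel the local background, each divided by the lowest background of that library, against the distance from the Hoxa7 start in kb; red circles are DFL and open blue squares PFL, 1 library each, and the lowest panel shows the gene models. DFL stands above PFL at -42 kb (9.53 in DFL, 3.62 in PFL), and below it from -6 to 0.3 kb, most clearly in the background panel.

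H3K27me3 regions of DFL were restricted in these lists to the Hoxa2 and Hoxa3 windows, whereas PFL regions reached Hoxa7. DFL had 2 regions covering 1364 bp (2.18% of the stretch) and PFL had 7 covering 2627 bp (4.19%). Such narrow calls, made against the surroundings in the same library, do not measure the extent of a broad domain. The DFL share of the summed length was 34.2% (6.32 to 54.7%), against 39.1% genome-wide. Both DFL regions overlapped a PFL region, against 91.0% of all DFL regions genome-wide, and 3 of the 7 PFL regions overlapped a DFL region, against 56.0% of all PFL regions. The PFL library had the higher lowest background and the longer list. With lists of equal size the stretch kept 2 DFL regions and 1 PFL region and the DFL share was 80.3%, and with −log10 q of at least 5 it kept 1 region of each piece and the share was 75.6%. The longer PFL extent and the PFL regions without DFL counterpart therefore rested on weak calls. Of the 2 DFL regions, that at Hoxa2 was weak as well, with −log10 q of 2.105 and a fold of 1.632.

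By gene, regions in both pieces were found at 2 of 6 members, Hoxa2 and Hoxa3, against 18.7% of all genes. Of the 5 members with a region, 0 had a covered length at least 1.5 times larger in DFL (3.79% of all genes with a region) and 3 had one at least 1.5 times smaller (48.1%), namely Hoxa5, Hoxa6 and Hoxa7. Hoxa5 and Hoxa6 count the same PFL region, so these 3 genes stand for 3 separate regions in 2 places. Hoxa4 had no region in either piece.

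The region 872 bp upstream of the Hoxa2 start in DFL (chr6:52165537-52165864) overlapped the start of the antisense RNA gene Hoxaas2. Its summit pileup was 78 fragments in DFL and 130 in the PFL counterpart (chr6:52165805-52166235). Scaled to the lowest background these were 25.5 in DFL and 27.4 in PFL, and the local backgrounds 15.5 in DFL and 16.8 in PFL. The log2 ratio of the pileups was −0.11 with an interval of −0.53 to 0.31, so a difference was not detectable here. The local background was high for both libraries, reached by 2.56% of DFL summits and 3.95% of PFL summits.

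In the Hoxa3 intron, 12597 bp upstream of the Hoxa2 start, DFL had 1 region with 2 summits (chr6:52177176-52178211, 59 and 52 fragments) and PFL had 2 regions (chr6:52177059-52177749 and chr6:52177847-52178180, strongest summits of 101 and 115 fragments). Scaled pileups were 19.3 in DFL against 21.3 and 24.2 in PFL, with intervals of the log2 ratios that spanned 0 (−0.63 to 0.33 and −0.81 to 0.13). The local background was 7.23 times the lowest in DFL and 11.9 and 11.8 times in the PFL regions, DFL over PFL ratios of 0.607 and 0.611. On the log2 scale this was −0.72 and −0.71, −0.64 and −0.63 when scaled to shared regions, and −1.35 and −1.34 with no scaling. Thus the local H3K27me3 background at the Hoxa3 intron was lower in the DFL library than in the PFL library under both scalings. At Hoxa2 the log2 ratio was −0.12 and −0.04 under the same scalings, and −0.75 with no scaling. The unscaled values include the library difference in lowest background (3.06 in DFL, 4.75 in PFL). Both Hoxa3 ratios use the same DFL summit, so they are 1 comparison and not 2. The annotated start of the plus-strand gene 5730596B20Rik lies inside the Hoxa3 intron region of both pieces (52177498 on chr6).

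The 4 PFL regions without DFL counterpart had 64 fragments in the Hoxa3 intron towards Hoxa4 (chr6:52185892-52186137), 75 in the Hoxa6 intron (chr6:52207077-52207312), and 59 and 54 upstream of Hoxa7 (chr6:52218616-52218974 and chr6:52219366-52219695). Their scaled local backgrounds, 6.57 to 8.67, were below those of the PFL regions at Hoxa2 and Hoxa3, 11.8 to 16.8. The calls were weak, with −log10 q of 1.72 to 3.63. Over all summits of the stretch the median scaled background was 7.28 in DFL (3 summits) and 11.8 in PFL (9 summits), a log2 ratio of −0.70. This ratio turned positive, 0.389, with the strongest summit of each region alone. It was −0.065 with the coding part of Hoxa3 in place of its long transcript, so the median gives no stable direction. The interval set around it, −0.94 to −0.47, comes from the summed summit pileups and does not measure the error of a background median.

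The called regions of the 2 marks did not overlap in either piece. Narrow calls can miss a broad domain, so whether the wider surroundings of the marks overlap was not tested. The shortest gap between an H3K27me3 region and an H3K27ac region was 1533 bp in DFL, between the Hoxa3 intron region and that over the Hoxaas3 start, and 411 bp in PFL, between the Hoxa3 intron region and the PFL H3K27ac region at chr6:52176341-52176647. In PFL, the 2 H3K27me3 regions upstream of Hoxa7 lay 598 and 1348 bp from the H3K27ac region of the Hoxa7 promoter. Their H3K27me3 local backgrounds were 6.73 and 6.57 times the lowest, and the H3K27ac local background of that promoter region was 10.3 times the lowest.

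**Figure D3:**
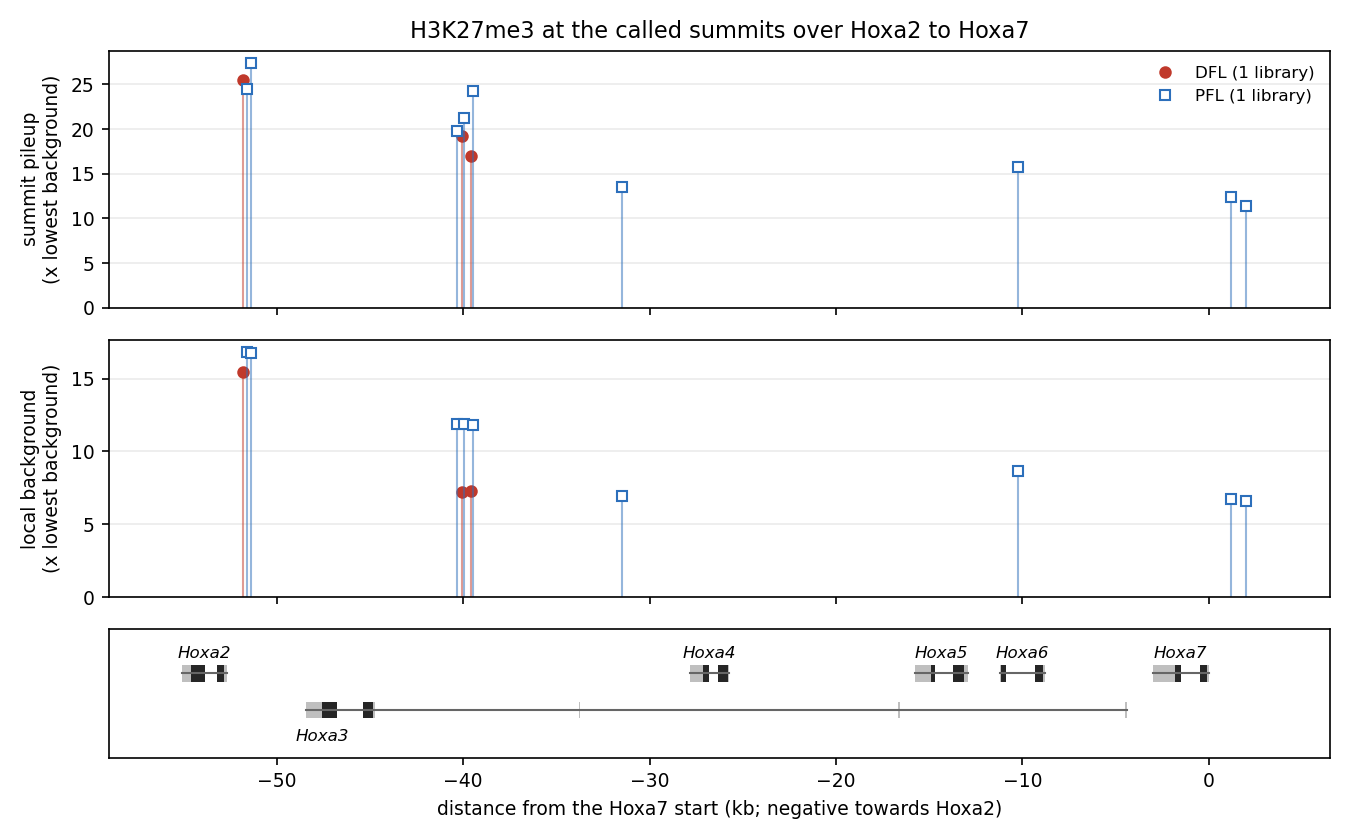
H3K27me3 at called summits along the genes, with axes and symbols as for H3K27ac. Red circles (DFL) appear at 2 places alone; at -51.8 kb the background is 15.5 in DFL and 16.8 in PFL, at -40 kb it is 7.23 in DFL and 11.9 in PFL, and the PFL regions from -31 to 2 kb have none beside them.

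CTCF occupied 5 sites, all of them called in both pieces (5 of 5 DFL sites, Wilson 95% interval 56.6 to 100%). Genome-wide, 88.7% of DFL sites and 91.8% of PFL sites were called in both. A site in both pieces was present at 5 of 6 genes, all but Hoxa2, against 59.1% of all genes. Site by site from the Hoxa2 side, the summit pileups in DFL were 58, 101, 216, 273 and 268 fragments, and those in PFL 43, 83, 250, 290 and 283. The sites were at 52186727, 52197462, 52204663, 52211734 and 52221826 on chr6, by their DFL summits. In that order they lie downstream of Hoxa4, upstream of Hoxa4, 76 bp upstream of the Hoxa5 start, between Hoxa6 and Hoxa7, and 4321 bp upstream of Hoxa7.

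The 3 sites from Hoxa5 to Hoxa7 were much the strongest in both libraries, with folds of 15.9 to 18.6 in DFL and 17.3 to 18.5 in PFL. Their scaled log2 ratios were −0.03, 0.09 and 0.10, and each interval spanned 0 (−0.30 to 0.24, −0.15 to 0.33 and −0.15 to 0.34). By fold, 4.18% of DFL summits and 2.57% of PFL summits reached the site between Hoxa6 and Hoxa7, and 5.77% of DFL and 3.77% of PFL summits reached that upstream of Hoxa7. The 2 weaker sites had ratios of 0.61 (0.01 to 1.21) and 0.46 (0.03 to 0.90), slightly higher in DFL. With scaling to shared regions they were 0.45 (−0.14 to 1.05) and 0.30 (−0.13 to 0.74), so that no CTCF difference held under both scalings. A match to the searched motif was found at 2 of the 5 sites, those upstream of Hoxa5 and Hoxa7 printed above, and it occurred in 67.3% of DFL and 67.7% of PFL summit windows genome-wide.

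**Figure D4:**
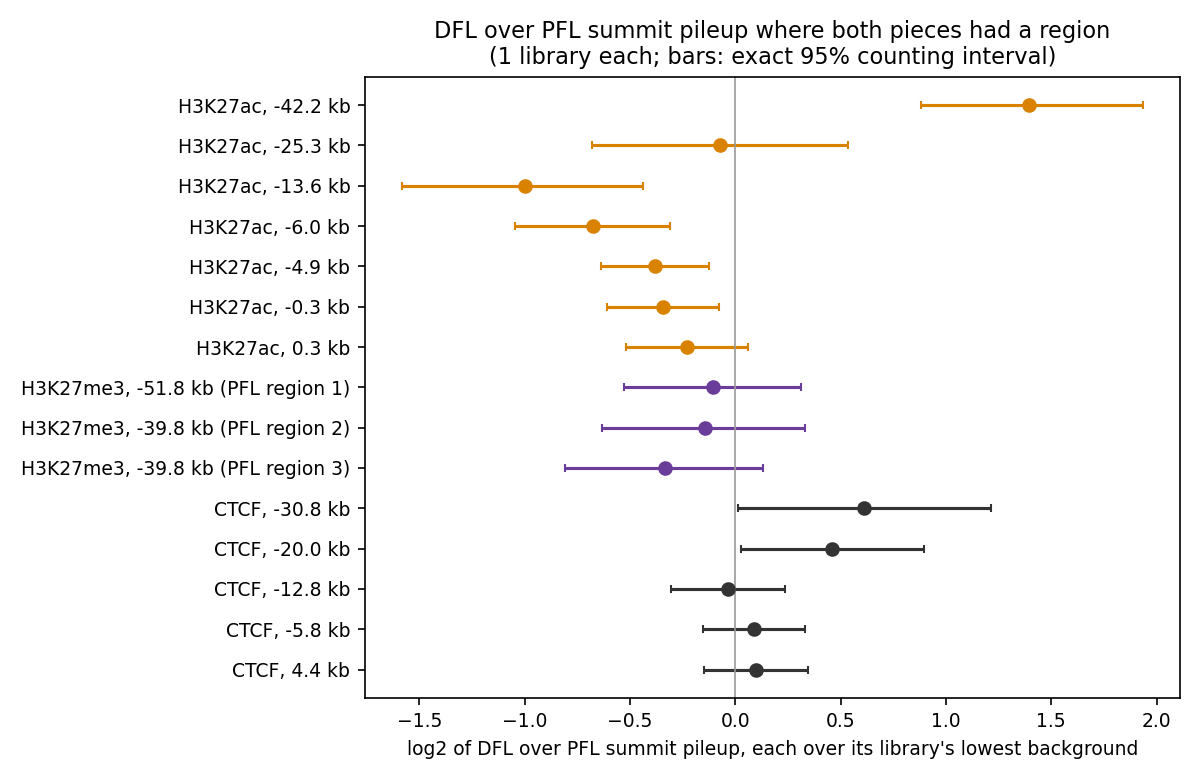
Regions called in both pieces. Each point is the log2 ratio of DFL over PFL summit pileup, each scaled to the lowest background of its library, and bars are exact 95% intervals for counting error; labels on the y axis give the mark and the distance from the Hoxa7 start. The H3K27ac region over the Hoxaas3 start lies at 1.396, the 5 H3K27ac regions from Hoxa5 to Hoxa7 lie between −1.0 and −0.23, and the 3 strongest CTCF sites lie near 0.

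HOX13 binding was called over all of the anterior genes. The lists held 15 HOXA13 and 17 HOXD13 regions here, which merged into 17 sites, 14 of them in both lists. Each of the 6 genes had a region of both factors, against 39.9% of all genes. Members share sites, since the Hoxa3 window contains most of them. With gene bodies alone there were 11 sites.

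The site of highest fold was in the Hoxa4 intron, 797 bp below its start (chr6:52190637-52191245), with 214 fragments and a fold of 12.8 for HOXA13 and 163 fragments and a fold of 10.1 for HOXD13. By fold it ranked 1048 of 66761 HOXA13 regions and 1941 of 52660 HOXD13 regions. It overlapped none of the 6 lists of marks and CTCF, in DFL or in PFL. By pileup the Hoxa7 intron site was higher, with 326 fragments for HOXA13 and 201 for HOXD13, as was the site upstream of Hoxa7 (chr6:52221885-52222594), with 216 for HOXA13 and 205 for HOXD13. By HOXA13 fold the next were a site in the Hoxa3 intron (chr6:52182718-52183403, 9.60 for HOXA13 and 9.56 for HOXD13), a site in the Hoxa7 intron (chr6:52216389-52217061, 7.81 for HOXA13 and 6.28 for HOXD13) and a site downstream of Hoxa5 (chr6:52200538-52201389, 7.70 for both).

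Of the 17 sites, 6 overlapped an H3K27ac region of DFL and 5 one of PFL, against 28.3% and 26.8% of all merged HOX13 sites genome-wide in DFL and PFL. For H3K27me3 the numbers were 2 in DFL and 3 in PFL, against 1.22% in DFL and 2.35% in PFL, and for CTCF 2 in DFL and 2 in PFL, against 8.93% in DFL and 8.70% in PFL. A further 6 of the 17 overlapped no region of these lists, against 60.7% of all sites. The site at chr6:52172735-52173141 and the Hoxa3 intron site lay over H3K27ac regions found in DFL alone, and the site downstream of Hoxa2 (chr6:52160818-52161787) over one found in PFL alone. The HOX13 lists come from forelimb of an earlier day that was not split into DFL and PFL.

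The CNNATAAA motif was present at 8 of 17 sites. By summit, it was within 50 bp at 8 of 18 HOXA13 summits (44.4%) and 7 of 22 HOXD13 summits (31.8%), where 22.9% of all HOXA13 and 23.7% of all HOXD13 summit windows hold it. At the Hoxa4 site, printed above, its centre was 4 bp from the nearer summit. The sites in the Hoxa3 intron and downstream of Hoxa5 held no match.

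**Figure D5:**
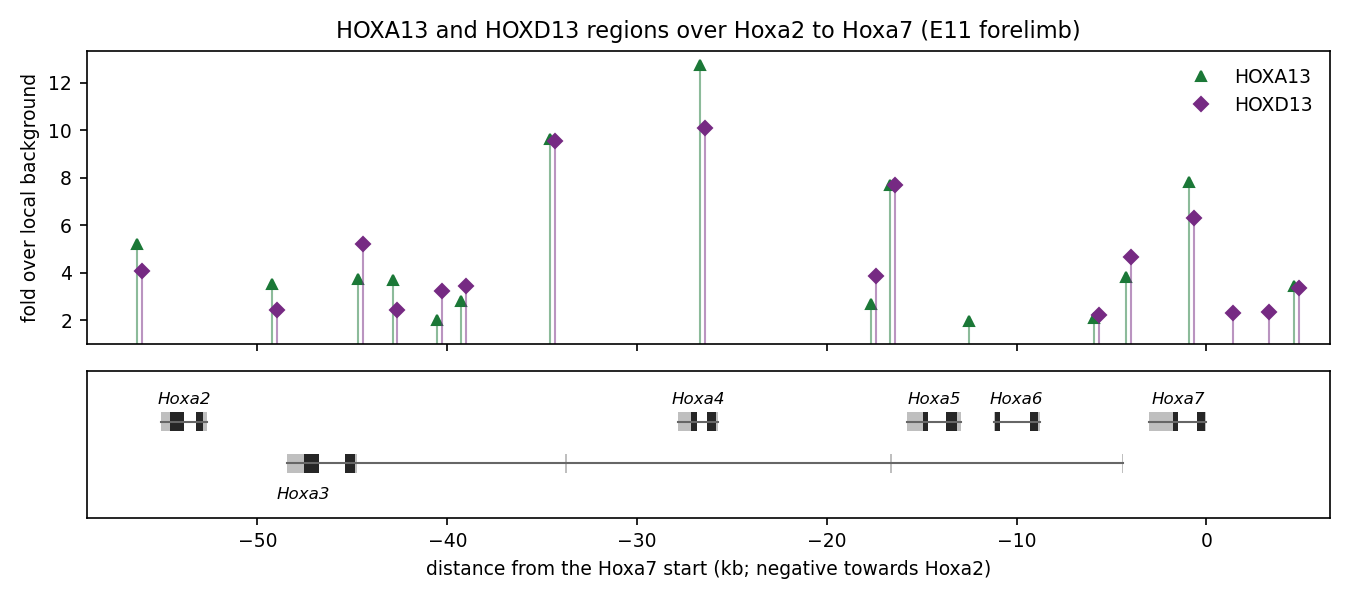
Fold over local background of the HOXA13 (green triangles) and HOXD13 (purple diamonds) regions at 17 sites, against the distance from the Hoxa7 start in kb; the 2 symbols of a site are set slightly apart. The highest pair, 12.8 for HOXA13 and 10.1 for HOXD13, stands in the Hoxa4 intron, and sites listed by a single factor have 1 symbol.

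Some of these regions coincided with annotated starts of antisense transcripts, a feature looked up after the region values were seen. Hoxaas3 has 2 annotated starts (52175217 and 52175235 on chr6) inside the H3K27ac region that was higher in DFL, and the HOXA13 site nearest to them ended 15 bp before the first. Another Hoxaas3 start (52201124) lay inside the HOX13 site downstream of Hoxa5. The antisense RNA genes Gm15050 (start at 52172881) and Gm29430 (start at 52183110) had a start inside HOX13 sites, 84 and 55 bp from DFL H3K27ac regions, and 2300 and 6463 bp from the nearest PFL H3K27ac region. Gm29430 has another start (52183725), 322 bp from the HOXA13 region and 492 bp from the HOXD13 region. Of 3 Hoxaas2 starts, 1 (52165674) was inside the DFL H3K27me3 region and 131 bp from the PFL one, and the others (52166518 and 52168510) were 654 and 2646 bp from the DFL region. ChIP-seq carries no strand, so signal there cannot be assigned to the antisense gene or to Hoxa2 and Hoxa3.

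The starts of the members differ in base composition. Within 500 bp either side of the start the GC content was 53.5% for Hoxa2, 53.6% for Hoxa3, 73.7% for Hoxa4, 54.6% for Hoxa5, 59.4% for Hoxa6 and 60.8% for Hoxa7, against a median of 55.0% over all genes. The observed over expected CpG ratio was 0.69, 0.63, 0.92, 1.0, 0.63 and 0.81 in the same order, above the median of 0.55 for all 6.

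The posterior genes of the cluster and Evx1 differed from the anterior ones in the same libraries. H3K27ac covered 34.9% of their merged windows in DFL and 19.2% in PFL, against 9.09% in DFL and 9.23% in PFL for Hoxa2 to Hoxa7. A covered length at least 1.5 times larger in DFL was found at 3 of 5 posterior genes (Hoxa10, Hoxa13 and Evx1) and 0 of 6 anterior ones, against 5.49% of all genes with a region. Hoxa13, the distal HoxA gene itself, had 4393 bp in DFL and 1829 bp in PFL, and Hoxa10 had 4122 bp in DFL and 2194 bp in PFL. H3K27me3 was called at the posterior genes only at Hoxa13, with 284 bp in PFL and none in DFL. With 1 library per piece this contrast has no test.

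Among 11 paralogs of groups 2 to 7 in the other clusters, H3K27ac was rarer. A region in both pieces was found at 1 of 11, Hoxb2, which had 979 bp in DFL and 2580 bp in PFL, and their median window had 0% covered in either piece, where the median member had 9.60% in DFL and 9.28% in PFL. H3K27me3 covered at the median 1.96% in DFL and 4.74% in PFL for the paralogs, and 0% in DFL and 2.72% in PFL for the members. Its length was at least 1.5 times smaller in DFL at 7 of the 10 paralogs with a region. That compares with 3 of 5 members and 48.1% of all genes with a region. It was at least 1.5 times larger in DFL at 3 of the 10 paralogs and 0 of 5 members, against 3.79%. Hoxd4 (868 bp in DFL, 274 bp in PFL) and Hoxb2 (807 bp in DFL, 474 bp in PFL) had the largest DFL minus PFL length of H3K27me3 within the comparison lists (posterior HoxA, neighbours, paralogs, cofactors and Polycomb genes), and Meis1, a cofactor gene of HOX proteins, had the smallest (3749 bp in DFL, 6287 bp in PFL). Next to the cluster, Skap2 had 1714 bp of H3K27ac in DFL and 4034 bp in PFL, and 765 bp of H3K27me3 in DFL and 2590 bp in PFL. For CTCF the extremes of the comparison genes were Meis1 (2057 bp in DFL, 533 bp in PFL) and Skap2 (3104 bp in DFL, 2714 bp in PFL) at one end, and Suz12 (565 bp in DFL, 816 bp in PFL) and Hoxc6 (434 bp in DFL, 678 bp in PFL) at the other.

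Of 7 cofactor genes (Meis and Pbx) 6 had H3K27ac and 5 had H3K27me3 in both pieces. Of 8 Polycomb genes 8 had H3K27ac and 3 had H3K27me3 in both. The protein-coding genes outside the cluster whose window cover in the 8 lists was nearest to the median member were Dusp23, Sertad2, Sbds, Gm45213 and Lgalsl. They differed from it by 1.14 to 1.59 percentage points on average over the lists, where the median over all genes was 5.59 points and the members themselves ranged from 0.980 to 6.29 points.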

How the data were processed

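The 6 samples were ChIP-seq libraries of DFL and PFL (1 each for H3K27ac, H3K27me3 and CTCF). Per the labels the authors used cutadapt, Bowtie, SAMtools and MACS2 on mm10. Peaks were called per library at q 0.05 with no input. Each deposited line gives a fold, which is a ratio of (pileup + 1) to (background + 1), the −log10 p and −log10 q of the authors' peak caller, and a summit offset in bp. These columns were used as deposited. HOX13 lists (2) belong to no sample.

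Whole-number pileups and their backgrounds were solved from fold and p with the Poisson tail, accurate to 0.001 in −log10 p for 99.7 to 100% of lines, and the solver was tested on simulated data. Read totals are unknown from the lists. Lines were merged into regions, autosomes and X alone. Gene windows were the body of the principal GENCODE vM21 transcript (longest coding sequence) plus 5 kb either side of its start. An overlap was at least 1 bp. Named were all members, the 2 comparison genes with the largest and the 2 with the smallest DFL minus PFL length per mark, and the 5 nearest profiles. Background shares cover 21617 genes with windows of all lengths. Members and lists were chosen with earlier results of these data known. Alternatives were stricter q or fold, lists of equal size, other windows, merging, overlap and scalings. No test across samples was possible. Python 3.11.15, numpy 2.4.6, scipy 1.17.1, pandas 2.3.3, statsmodels 0.14.6 and matplotlib 3.10.9 were used.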

Additional observations from a re-analysis of the deposited data

How the results depend on the processing

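The H3K27ac share of covered length ranged from 47.3 to 52.9% under the 8 alternatives (49.6% as reported). All were inside the interval of 33.0 to 70.8%, but that interval is wide and belongs to region numbers, not lengths. Staying inside it is thus a weak check. For CTCF, 5 of 5 or 4 of 4 DFL sites had a PFL site under all 8 alternatives. The number of HOX13 sites stayed within 1.5 times of 17 except with gene bodies alone (11). The H3K27me3 share, which rests on 9 regions, moved to 75.6% with −log10 q of at least 5, to 75.6% with a fold of at least 2 and to 80.3% with lists of equal size. These settings left 1 or 2 DFL regions and 1 PFL region. The median H3K27ac pileup ratio (log2, −0.255 as reported) became −0.039 with division by shared regions, −0.926 with −log10 q of at least 5, −0.821 with regions called in both pieces, −0.154 with the coding part of Hoxa3 in place of its long transcript, and 0.385, the opposite sign, with the highest summit of each region. The median H3K27me3 background ratio (log2, −0.701) became −1.332 with no division, −0.065 with the coding part of Hoxa3 and 0.389, the opposite sign, with the highest summit of each region, where single regions enter or leave a median of few summits. The settings on regions of both pieces and on the coding part of Hoxa3 were chosen after seeing the data. No paired analysis was possible because each mark and piece had 1 library. Depth limits the H3K27me3 pair most, as its lowest backgrounds were 3.06 fragments in DFL and 4.75 in PFL.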
